A study of Drosophila melanogaster with 10 samples.

Results

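The odorant-binding protein genes of Drosophila melanogaster were chosen by name alone. A probe set counted where its only gene symbol in the platform annotation was Obp followed by a digit, and each gene was read from its brightest probe set, by the mean of all 10 arrays. This gave 47 genes from 50 probe sets, out of 11983 genes measured in this way. The gene table of the Release 6 assembly lists 51 protein-coding genes with such a symbol. Obp50b, Obp50c and Obp57d lay only on probe sets that name several genes, and Obp83a was not analysed here.

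Expression was measured on arrays of neurons sorted by fluorescence from cultured embryo cells of 2 reporter strains, with 5 arrays each. Cha cells carried the transgenes Cha-Gal:UAS-GFP, in which a 7.4 kb fragment named for Cha, the gene of the acetylcholine-making enzyme, works through Gal4 and UAS to give green fluorescence. Gad cells carried Gad1(s)-RFP, in which a 2.1 kb fragment named for Gad1, the gene of the GABA-making enzyme, gives red fluorescence with no Gal4 step. In both groups the parent flies were 2 weeks old, embryos were taken apart at the early gastrula stage, and cells were grown at 25 °C for 5 to 7 days (up to 8 days in the growth notes). The groups thus differ in reporter and transgene design as well as in the cells marked, and these cannot be told apart. No label states that samples of a group were separate cultures, so each p-value reflects the scatter of these samples alone, part of which may be technical. Arrays correlated at 0.971 to 0.99 within Cha, 0.989 to 0.997 within Gad and 0.954 to 0.983 between them.

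Odorant-binding proteins are small secreted proteins whose fold, held by disulfide bridges, encloses a greasy pocket. In the antenna and the taste organs they are made mostly by the accessory cells around sensory neurons and fill the fluid that bathes the neurons' dendrites, where they bind odorants, pheromones and tastants. Many are also made outside sense organs, in glia, fat body, the gut and the male reproductive tract, where their ligands are less well known. The classic members carry a conserved set of cysteines. Minus-C members lack some of these, Plus-C members carry more, and dimer members hold a pair of the domains.

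Values are log2 expression values from RMA, in which a difference of 1 is a doubling. The signal of a probe set also depends on its probes, so the order of genes by signal is not an order of transcript number. As a limit for signal, a gene counted as above it where its value exceeded the 40th percentile of its own array on at least 5 of the 10 arrays. That percentile lay between 4.77 and 4.84 on the Cha arrays and between 4.75 and 4.82 on the Gad arrays.

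Signal above this limit was found for 23 of the 47 odorant-binding protein genes, or 48.9%, where 74.6% of all genes passed it. On single arrays, 21 or 22 of the 47 exceeded the percentile in Cha and 22 to 24 in Gad. In Cha 17 genes exceeded it on all 5 arrays, and in Gad 21 did. A further 19 genes exceeded it on no array at all, and 5 on 1 or 2 arrays. Just above the limit stood Obp19d, on 3 Cha and 5 Gad arrays, Obp73a, on 4 and 4, and Obp19b, on 1 and 4. Obp19d had 4.74, 4.82, 4.87, 5.19 and 4.80 in Cha and 4.95, 5.04, 4.89, 4.93 and 5.04 in Gad. Obp73a had 4.91, 4.70, 4.84, 4.95 and 4.89 in Cha and 5.15, 4.86, 5.01, 4.69 and 4.92 in Gad. In both genes the groups overlapped, as they did in Obp19b, with 4.77, 4.72, 4.39, 4.74 and 5.02 in Cha and 4.98, 4.57, 4.89, 4.83 and 4.95 in Gad. Just below it stood Obp57e, on 2 Cha arrays, and Obp8a and Obp19c, on 1 array each. Means over the 10 arrays ran from 11.14 for Obp49a down to 3.40 for Obp56f, near the lowest values of the arrays.

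**Figure D1:**
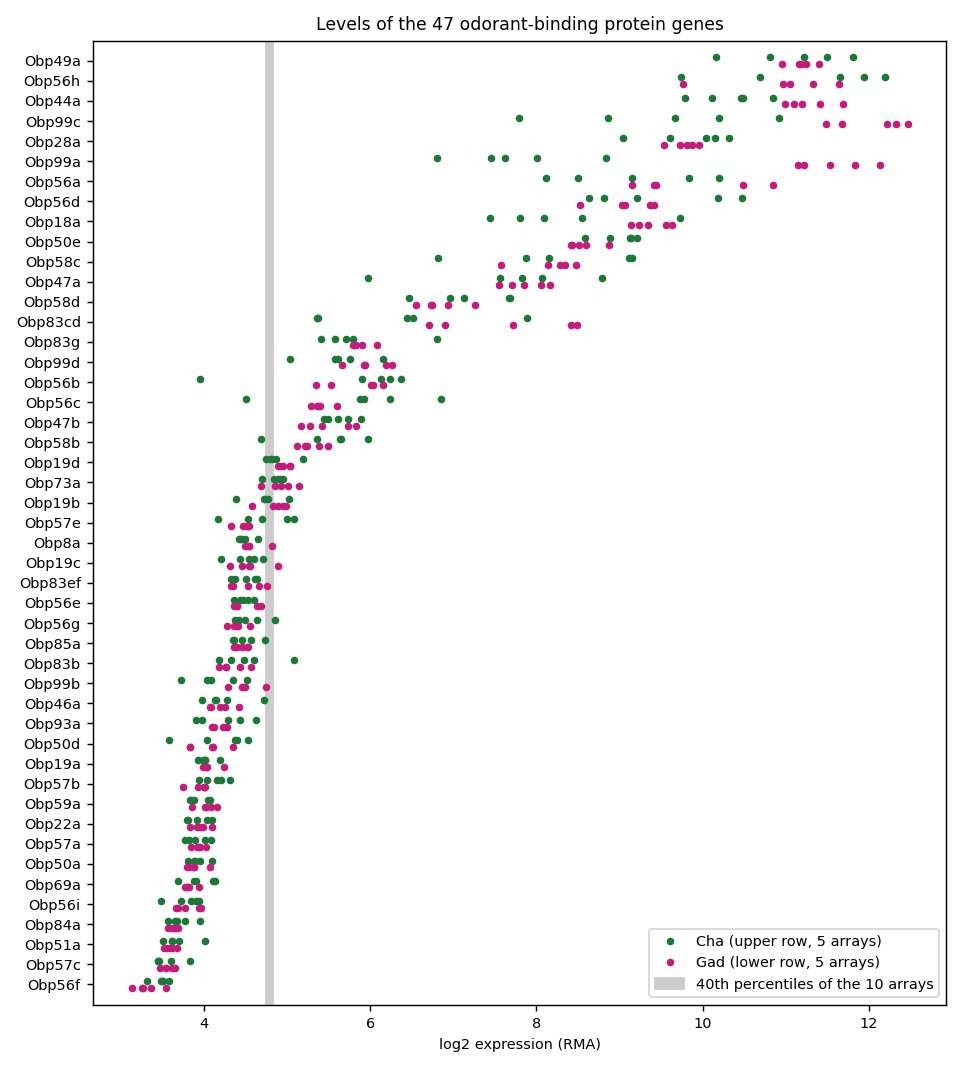
Log2 expression (RMA) of the 47 odorant-binding protein genes on each array, ordered by the mean over all 10 arrays, with Cha above Gad in each row and the 40th percentiles of the arrays as a grey band. The lower 24 genes lie at or left of the band on most arrays, and the Cha and Gad points do not overlap in Obp99a, Obp99c and Obp44a.

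Obp99a, Obp99c and Obp44a differed between the groups, all with lower values in Cha. Differences were tested with limma across all genes, with p-values adjusted by the Benjamini-Hochberg method and a threshold of 0.05. Of the 47 genes, 0 were higher in Cha, where 8.21% of all genes were. The 3 that were higher in Gad make up 6.38%, beside 10.2% of all genes, so the count itself is near the background. By an unadjusted exact permutation test at 0.05, 1 gene was higher in Cha and 5 in Gad. This test was run on the 47 genes alone, so no share of all genes stands beside these counts. Some calls among 47 unadjusted tests come by chance, so the counts add no support to the limma calls. Among the genes above the limit for signal, the share higher in Gad was 13.0% in the family and 13.3% in all genes, and the share higher in Cha was 0 of 23 in the family and 10.4% in all genes. The Cha and Gad arrays did not overlap in these 3 genes, or 6.38%, against 13.5% of all genes. The family median of the difference, Cha minus Gad, was -0.02, and that of all genes 0.04. What stood out was the size of the difference in a pair of members.

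Obp99a had log2 values of 8.01, 7.63, 8.84, 7.46 and 6.80 in Cha replicates 1 to 5, against 11.83, 11.22, 12.14, 11.14 and 11.54 in the Gad replicates. Every Cha array lay far below every Gad array. Means were 7.75 ± 0.75 in Cha and 11.57 ± 0.42 in Gad (SD, n = 5 each). The difference was -3.82 (95% interval -4.56 to -3.09, limma adjusted p = 8.3e-05), or 14.2-fold lower in Cha. This was the 4th largest difference toward Gad among the 11983 genes. On the average Cha array its signal exceeded 66.2% of all probe sets, and on the average Gad array 96.3%. The gene is thus above the limit for signal in both groups.

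Obp99c had values of 10.19, 9.66, 10.92, 7.79 and 8.86 in Cha, against 12.46, 12.22, 12.33, 11.48 and 11.67 in Gad. The Cha arrays were lower throughout and spread far more widely, with replicate 4 the lowest. Means were 9.49 ± 1.21 in Cha and 12.03 ± 0.43 in Gad. The difference was -2.55 (interval -3.64 to -1.46, limma adjusted p = 0.00599), or 5.84-fold lower in Cha. It held place 62 by size among the differences toward Gad.

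Obp44a, whose protein is known from glia of the fly nervous system, had values of 10.85, 10.49, 10.11, 9.79 and 10.46 in Cha, against 11.10, 11.68, 10.99, 11.41 and 11.20 in Gad. The groups did not overlap, but the highest Cha array lay only a little below the lowest Gad array. Means were 10.34 ± 0.40 in Cha and 11.28 ± 0.27 in Gad. The difference was -0.94 (interval -1.37 to -0.50, limma adjusted p = 0.00896), or 1.91-fold lower in Cha. The exact permutation test of each of the 3 genes gave p = 0.00794, the smallest that 5 against 5 arrays allow, with no adjustment over the 47 genes. All 3 stayed past the limma threshold in each of 20 alternatives, with adjusted p up to 0.0023 for Obp99a, 0.0313 for Obp99c and 0.0391 for Obp44a. No other probe set named these genes. The alternatives on probe set choice could therefore change their adjusted p but not their differences.

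**Figure D2:**
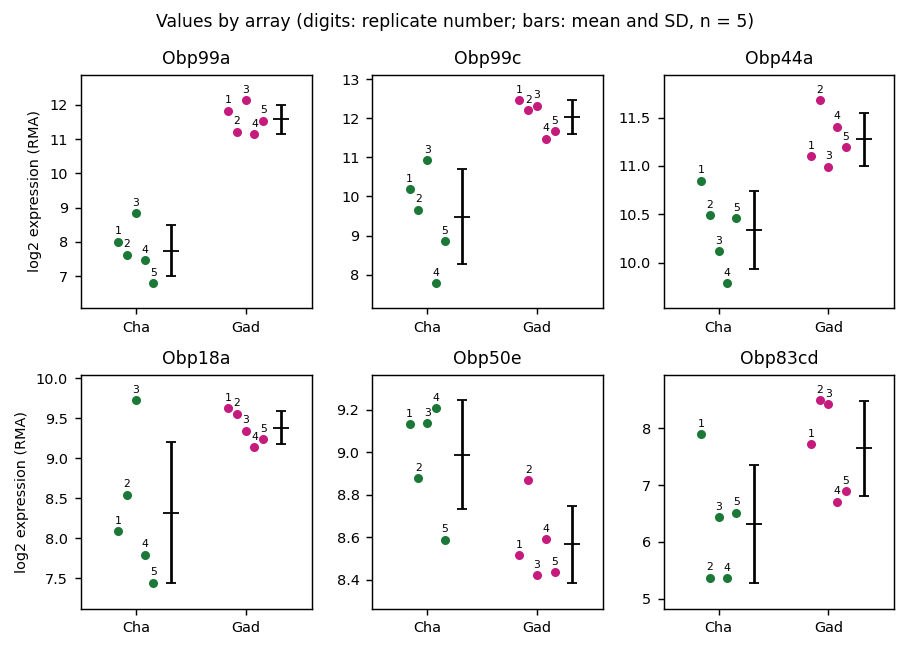
Log2 expression (RMA) by array for the 3 genes past the threshold (upper panels) and the 3 nearest to it by adjusted p (lower panels), with Cha left of Gad, digits for the replicate number, and bars for mean and SD (n = 5). The groups separate in Obp99a, Obp99c and Obp44a and overlap in Obp18a, Obp50e and Obp83cd.

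Obp18a, Obp50e and Obp83cd came next and did not pass. Obp18a had values of 8.09, 8.55, 9.72, 7.80 and 7.45 in Cha, against 9.63, 9.56, 9.35, 9.14 and 9.24 in Gad. Replicate 3 of Cha lay above all Gad arrays, and the other Cha arrays lay below them. The difference was -1.06 (interval -1.84 to -0.29, limma adjusted p = 0.0592). Without Cha replicate 3 it was -1.41 (limma adjusted p = 0.00303), and it also passed with dim probe sets removed (0.0448) and with array weights (0.0304).

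Obp50e, a Plus-C member, had values of 9.13, 8.88, 9.14, 9.21 and 8.59 in Cha, against 8.52, 8.87, 8.42, 8.59 and 8.43 in Gad. Most Cha arrays were higher, and the groups overlapped through Cha replicate 5 and Gad replicate 2. The difference was 0.42 (interval 0.12 to 0.72, limma adjusted p = 0.0552). It passed without Cha replicate 5 (0.52, adjusted p = 0.0153), without Gad replicate 2 (0.50, adjusted p = 0.039), with median centring (0.44, adjusted p = 0.0463) and with array weights (0.46, adjusted p = 0.0221).

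Obp83cd, a dimer member, had values of 7.89, 5.37, 6.44, 5.36 and 6.52 in Cha, against 7.72, 8.49, 8.42, 6.71 and 6.90 in Gad. Replicate 1 of Cha stood among the Gad arrays and the others lay below all of them. The difference was -1.33 (interval -2.46 to -0.20, limma adjusted p = 0.0985), and without Cha replicate 1 it was -1.72 (adjusted p = 0.0223). The exact permutation test gave p = 0.0476 for Obp18a, 0.0238 for Obp50e and 0.0476 for Obp83cd, unadjusted.

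**Figure D3:**
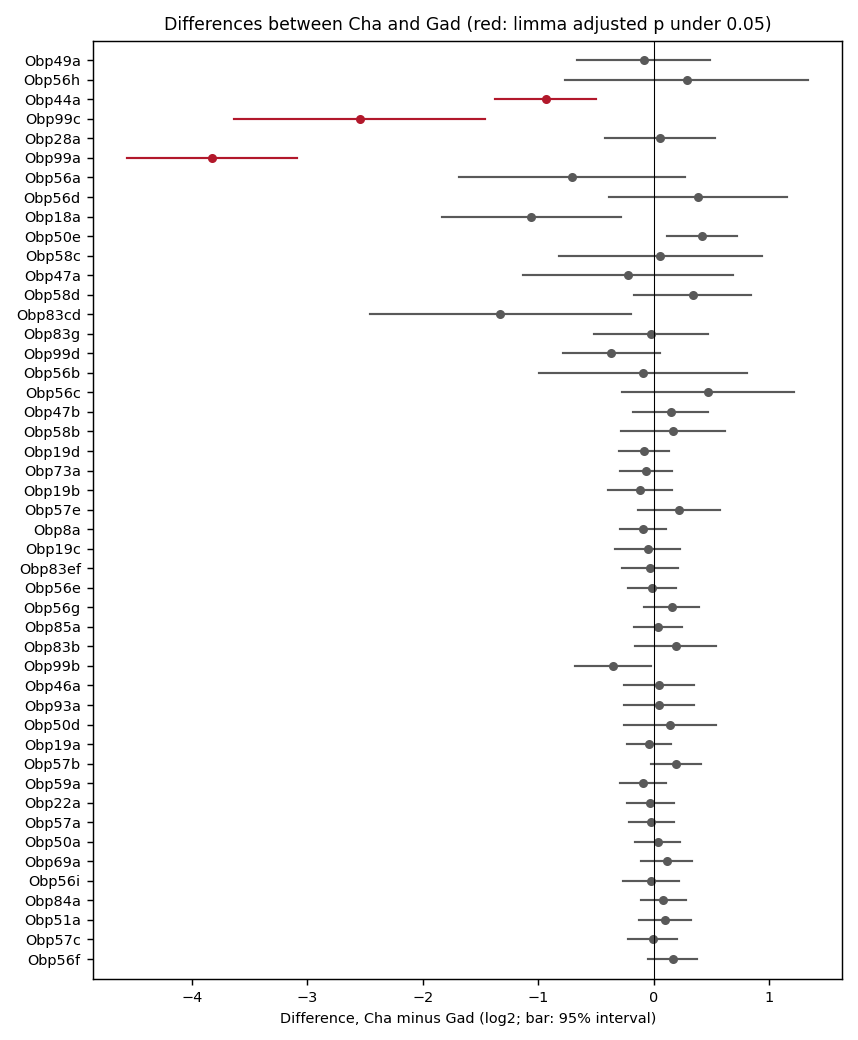
Difference in log2 expression, Cha minus Gad, with its 95% interval from limma for all 47 genes, in the order of mean signal. Red marks limma adjusted p under 0.05, reached by Obp44a (-0.94), Obp99c (-2.55) and Obp99a (-3.82), and the intervals of the dim genes in the lower part are narrow and near 0.

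The 3 genes that differed all belong to the Minus-C class, a grouping set out here after the values were seen and not tested. Of its 6 measured members, 4 were above the limit for signal and all 6 had the lower mean in Cha, with a median difference of -0.65. Of all 11983 genes, 5153 had the lower mean in Cha. The summed signal of the 6 genes, on the log2 scale, ran from 10.45 to 11.81 on the Cha arrays and from 12.96 to 13.53 on the Gad arrays. The 3 genes that passed are by far the brightest of the 6, so this sum mainly repeats their differences. Of the 41 genes outside the class, 0 passed by limma, 1 was higher in Cha and 2 in Gad by the unadjusted exact test, and the median difference was 0.04. Their summed signal ran from 12.29 to 13.84 in Cha and from 12.88 to 13.52 in Gad, so that the ranges overlapped. Because the class was set out with the calls known, this contrast adds nothing to the calls of the 3 genes. Of the remaining Minus-C members, Obp99d had 5.58, 5.61, 5.76, 6.15 and 5.03 in Cha, against 5.92, 5.66, 6.26, 5.94 and 6.19 in Gad, so that the groups overlapped (difference -0.37, interval -0.79 to 0.05, limma adjusted p = 0.216). The others were Obp99b (4.14 and 4.49, difference -0.35) and Obp8a (4.49 and 4.58, difference -0.09). Obp99b exceeded the percentile on no array and Obp8a on 1, so that little can be read from their differences.

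Among the 11 measured Plus-C members, 6 were above the limit for signal, and 0 passed by limma. The mean was higher in Cha for 10 of them, with a median difference of 0.06. Of all 11983 genes, 6830 had the higher mean in Cha, with a median difference of 0.04, so the Plus-C median is near the background. The count of 10 of 11 lies further from it. That count was not tested and includes 5 members that exceeded the percentile on no array. Obp49a, known from taste sensilla where bitter compounds acting through it dampen the response to sugar, had values of 10.81, 11.22, 11.49, 11.81 and 10.16 in Cha, against 11.16, 10.95, 11.24, 11.18 and 11.39 in Gad. The Gad arrays lay inside the range of the Cha arrays. Its difference was -0.09 (interval -0.66 to 0.49, limma adjusted p = 0.859), so a change beyond about that interval is not shown in either direction. Obp58b, Obp58c and Obp58d, which lie side by side in the Release 6 gene order, differed by 0.17, 0.06 and 0.34 (adjusted p of 0.617, 0.938 and 0.344), and Obp47b by 0.15. Obp58c had 8.15, 7.88, 9.12, 9.15 and 6.82 in Cha, against 8.29, 8.48, 7.57, 8.14 and 8.35 in Gad. Obp58d had 7.13, 6.96, 7.68, 7.68 and 6.47 in Cha, against 6.74, 7.26, 6.55, 6.74 and 6.93 in Gad. Both were highest on Cha replicates 3 and 4 and lowest on Cha replicate 5, with the Gad arrays in between. Obp58b had 5.64, 5.36, 5.98, 5.65 and 4.69 in Cha, against 5.38, 5.50, 5.22, 5.24 and 5.12 in Gad. Obp47b had 5.49, 5.44, 5.74, 5.89 and 5.61 in Cha, against 5.74, 5.83, 5.16, 5.27 and 5.42 in Gad. The groups overlapped in both. The other 5 Plus-C members, Obp46a, Obp50a, Obp50d, Obp85a and Obp93a, exceeded the percentile on no array, so that little can be read from their differences.

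Of the 7 measured members known from the antenna, 2 were above the limit for signal. Obp28a, which in flies binds floral odorants, had values of 9.04, 10.15, 10.32, 10.04 and 9.61 in Cha, against 9.87, 9.53, 9.73, 9.81 and 9.96 in Gad. All Gad arrays fell within the Cha range, and the difference was 0.05 (interval -0.43 to 0.53, adjusted p = 0.9). Obp56d, known from both antenna and taste organs, had 8.81, 9.21, 10.48, 10.18 and 8.63 in Cha, against 9.41, 8.53, 9.06, 9.03 and 9.36 in Gad. Cha replicates 3 and 4 lay above all Gad arrays and the others among them (difference 0.39, interval -0.38 to 1.15, adjusted p = 0.494). Obp19a, Obp59a, known from humidity sensing, Obp69a and Obp84a exceeded the percentile on no array, and Obp83b exceeded it on 1 Cha array. Second probe sets of Obp19a and Obp59a were as dim, with means of 3.84 and 3.47 in Cha and 3.94 and 3.40 in Gad. Of the 3 measured members known from taste organs, Obp49a and Obp19b were above the limit. Obp57e, which in flies acts in the taste response to fatty acids of a host fruit, had means of 4.70 in Cha and 4.48 in Gad. All 7 measured members known from seminal fluid were below the limit, at means over 10 arrays of 3.40 to 4.54.

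Runs of neighbouring members often held genes both above and below the limit for signal, though not in every run. Obp58b, Obp58c and Obp58d were all above it, but Obp59a, directly beside Obp58b, exceeded the percentile on no array. The same held for Obp57a, Obp57b and Obp57c, which exceeded it on no array. In the Release 6 gene order the Obp56 genes form a run from Obp56a to Obp56i. Obp56a, Obp56b, Obp56c, Obp56d and Obp56h were above the limit, whereas Obp56e, Obp56f, Obp56g and Obp56i were not. Obp56h, whose loss in flies alters mating behaviour, had values of 10.69, 11.65, 12.19, 11.93 and 9.73 in Cha, against 11.64, 9.76, 10.97, 11.06 and 11.33 in Gad. Both groups held 1 array well below the rest, and the difference was 0.29 (interval -0.77 to 1.34, limma adjusted p = 0.726). Its direct neighbour Obp56g had means of 4.56 in Cha and 4.40 in Gad. Obp56a had 8.51, 9.15, 9.84, 10.20 and 8.11 in Cha, against 10.84, 9.15, 10.49, 9.44 and 9.42 in Gad, with overlapping groups (difference -0.71, interval -1.68 to 0.27, adjusted p = 0.307). Obp56b had 5.90, 6.24, 6.37, 6.14 and 3.96 in Cha, against 6.01, 5.35, 6.03, 5.52 and 6.16 in Gad (difference -0.09, adjusted p = 0.905), with Cha replicate 5 far below all other arrays. Outside these runs, Obp47a had 7.56, 7.83, 8.79, 8.06 and 5.98 in Cha, against 8.17, 7.71, 7.55, 7.85 and 8.06 in Gad (difference -0.22, interval -1.13 to 0.69). Obp83g had 5.71, 5.79, 5.57, 6.80 and 5.40 in Cha, against 5.90, 6.08, 5.81, 5.79 and 5.83 in Gad (difference -0.02, interval -0.52 to 0.47). In Obp47a the Gad arrays lay within the Cha range, and the same held for Obp83g. Obp83g and Obp83cd were above the limit while Obp83ef, which lies between them, was not. None of the 9 Obp56 genes passed the limma threshold or the exact test on all arrays.

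The Obp99 genes lie in the order Obp99a, Obp99c, Obp99d and Obp99b, with other genes between them. Between Obp99a and Obp99c stand 5 protein-coding genes. Of these, Cap-D2, a condensin subunit gene, was lower in Cha (7.89 in Cha and 8.83 in Gad, difference -0.94, limma adjusted p = 0.00546). The other 4, ppk19, Bub3, CG7582 and Gycalpha99B, differed by -0.21 to 0.63 and did not pass. The gene between Obp99c and Obp99d, dmrt99B, differed by 0.09, and Dup99B, between Obp99d and Obp99b, by -0.02. The large differences of Obp99a and Obp99c were larger than that of any measured gene between them.

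**Figure D4:**
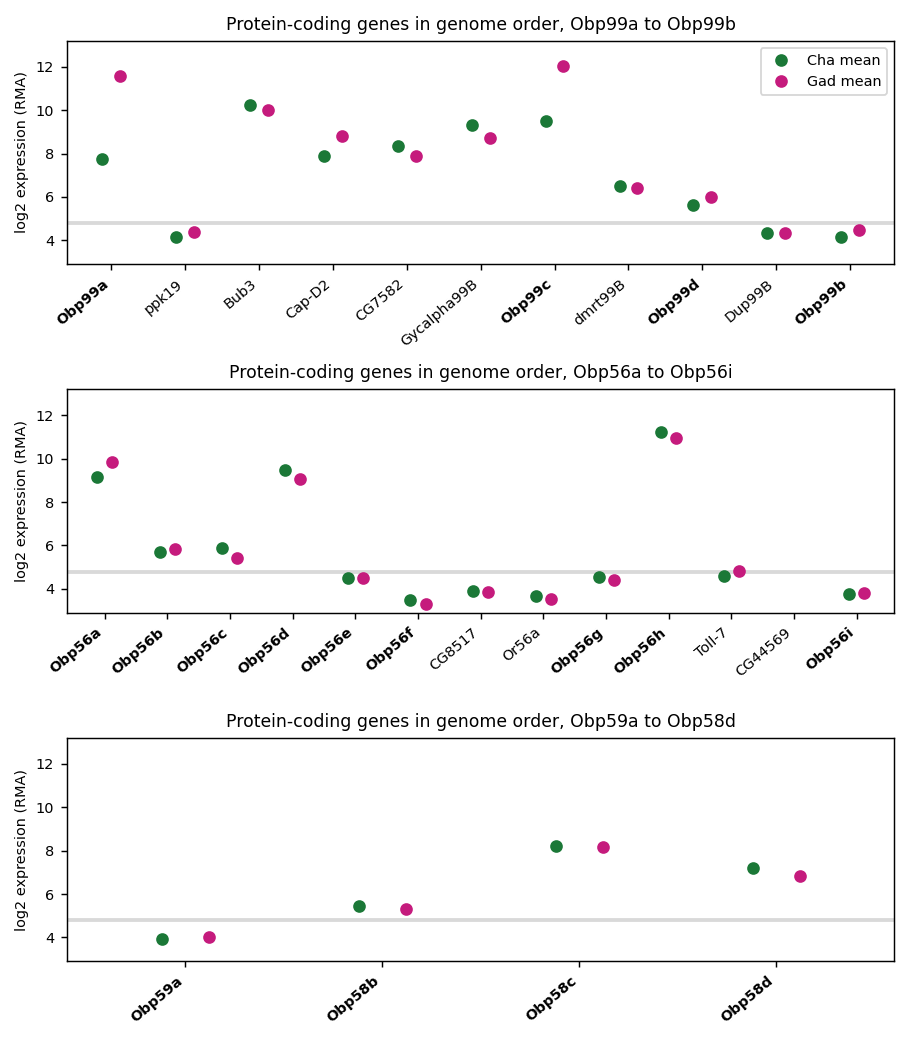
Mean log2 expression (RMA) in Cha and Gad (n = 5 each) for runs of protein-coding genes in the order of the Release 6 assembly, evenly spaced, with odorant-binding protein genes in bold and the 40th percentiles of the arrays as a grey band. Obp99a and Obp99c stand apart between the groups while the genes between them differ by less than 1, and genes above and below the band lie among each other in the Obp56 run. CG44569 has no point because it was not analysed here.

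Members above the limit varied widely among the Cha arrays. Their median SD was 0.64 in Cha and 0.25 in Gad, beside 0.30 and 0.19 for all genes above the limit, and the SD was larger in Cha for 21 of the 23, or 91.3%, where 79.5% of all such genes showed this. Cha replicate 5 held the lowest Cha value in 15 of the 23 genes, or 65.2%, where it did so in 17.5% of all genes above the limit. Cha replicates 3 and 4 held the highest Cha value in 10 genes each, or 43.5%, beside 17.6% and 24.3% of all genes above the limit. The Gad arrays were uneven too. Gad replicate 2 held the lowest Gad value in 9 genes and the highest in 9, or 39.1% each, beside 23.8% and 27% of all genes above the limit. Of the 23 genes, Obp56c, in the Obp56 run, had 6.24, 5.93, 5.88, 6.85 and 4.51 in Cha, against 5.40, 5.29, 5.60, 5.36 and 5.39 in Gad. All Cha arrays but replicate 5 lay above all Gad arrays. The difference was 0.47 (limma adjusted p = 0.374), and without Cha replicate 5 it was 0.82 (adjusted p = 0.0157). Over the 23 genes, 9 had the higher mean in Cha and 14 in Gad with all arrays, and 13 and 10 without Cha replicate 5. That array was picked for its low values in these genes, so a shift toward Cha was largely fixed in advance. With any other array left out, 8 to 10 had the higher mean in Cha and 13 to 15 in Gad. Of all 8935 genes above the limit, 4871 had the higher mean in Cha and 4064 in Gad. With Cha replicate 5 left out, 5 members passed the limma threshold, the 3 lower in Cha together with Obp50e and Obp56c, both higher in Cha.

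**Figure D5:**
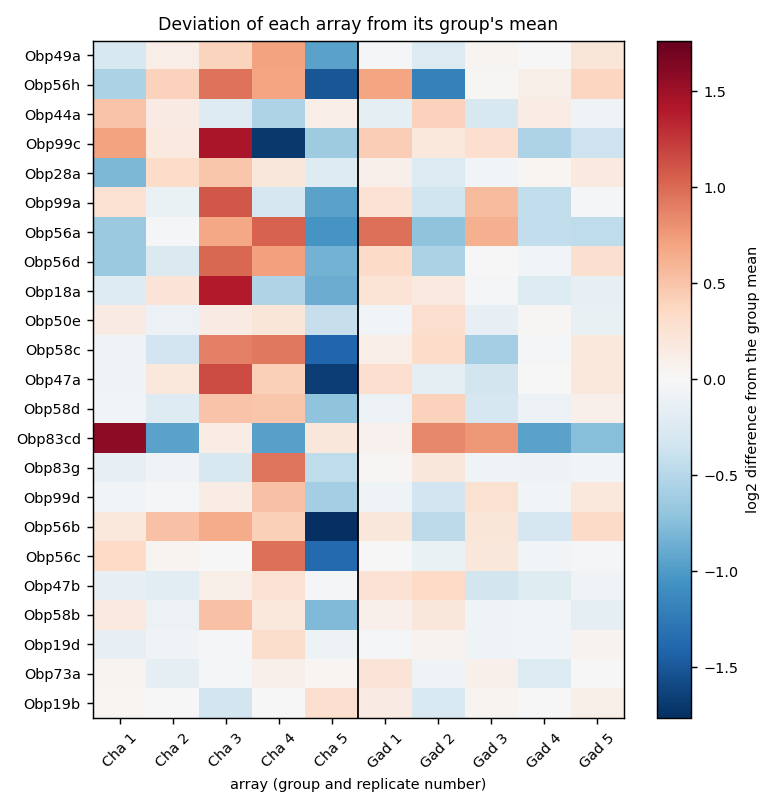
Deviation of each array from the mean of its own group, in log2 units, for the 23 odorant-binding protein genes above the limit for signal, with Cha arrays left of Gad arrays. Cha replicate 5 is the lowest Cha array in 15 of the 23 genes, and the Gad arrays deviate less than the Cha arrays in 21 of them.

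The pattern of the arrays was also compared with markers of other cells that the sort could hold. Of 7 measured neuronal markers, all were above the limit, 5 were higher in Cha and 0 in Gad, led by Syn, a synaptic vesicle gene (1.75), with futsch (1.30) and fne (1.29). Their summed signal, on the log2 scale, ran from 13.73 to 14.58 in Cha and from 12.50 to 13.65 in Gad. Of 11 glial markers, 9 were above the limit, with 0 higher in Cha and 4 in Gad, among them Cyp4g15 (-1.15), drpr (-0.75) and zyd (-0.83), and their summed signal ran from 12.57 to 12.97 in Cha and from 13.05 to 13.50 in Gad. Of the glial list, wrapper and Gat were above the percentile on no array. Of 9 fat body markers, 6 were above the limit, with 0 higher in Cha and 3 in Gad, Pepck1 (-2.00), Lsd-1 (-1.91) and Lsp2 (-4.64), and the summed signal ran from 11.48 to 13.89 in Cha and from 13.82 to 14.78 in Gad. Over the 9 fat body markers, the mean was higher in Gad for 6 and in Cha for 3, with a median difference of only -0.07. The brightest markers weigh most in such sums, in glia moody (limma adjusted p = 0.0601) and in fat body apolpp (limma adjusted p = 0.0511), and neither passed. Yp1, the yolk protein gene, exceeded the percentile on no array, and Lsp2, the storage protein gene, on no Cha array and 4 Gad arrays. In Gad, Lsp2 had widely spread values of 12.08, 4.67, 12.32, 8.77 and 7.72. Replicate 2 of Gad lay within the Cha range of 4.24 to 4.69, so the groups overlapped. For Lsp2 the call ended on removal of Cha replicate 3 (adjusted p = 0.0513), or of replicate 1 or 3 of Gad (0.0537 and 0.0552), and without the arrays coded K+ in their description, Cha replicate 2 and Gad replicate 5 (0.0719). Of 11 blood cell markers, all were above the limit, with 2 higher in Cha (PPO1, 3.39, and PPO2, 1.73). The 4 higher in Gad were srp (-1.73), Col4a1 (-1.65), vkg (-1.95) and LanA (-0.93). Over the 11, the mean was higher in Gad for 6 and in Cha for 5, so the list did not go 1 way. Summed signals were 12.40 to 13.13 in Cha and 13.24 to 13.96 in Gad. LanA, vkg and Col4a1, the brightest of the 11 by the mean over 10 arrays, weigh most in these sums. The part of these cells in the lower values of Obp99a, Obp99c and Obp44a in Cha was not tested. In such bulk samples, fewer cells of a type and less RNA per cell cannot be told apart.

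For accessory cells of sense organs, the usual makers of odorant-binding proteins, 3 markers were measured. The gene nompA, which encodes a protein of the cap that joins sensory dendrites to their accessory structures, had means of 9.11 ± 0.47 in Cha and 9.30 ± 0.19 in Gad (difference -0.18, limma adjusted p = 0.586). The gene pros, which is also active in dividing neural cells, had means of 9.90 ± 0.43 in Cha and 9.53 ± 0.38 in Gad (difference 0.37, adjusted p = 0.306). On Cha replicate 5, where many members were low, nompA stood at 9.20, within the range of the other Cha arrays, whereas pros stood at 9.15, below the 9.96 to 10.21 of the others. The factor gene sv exceeded the percentile on no array. Its difference of 0.38 passed (limma adjusted p = 0.0301), but only in 10 of 19 alternatives, with adjusted p up to 0.0796. Single arrays whose removal ended the sv call were Cha replicates 2 and 5 and Gad replicates 1 and 2. The part of accessory cells in the values of the members was not tested. Of 7 male accessory gland markers, 0 were above the limit and their summed signals were 6.73 to 7.11 in Cha and 6.55 to 6.81 in Gad. The dim gene Acp76A passed as higher in Cha (difference 0.41, limma adjusted p = 0.039), in 10 of 19 alternatives, with adjusted p up to 0.17. Removing any of Cha replicates 1, 2 and 3 or Gad replicates 1, 2, 3 and 5 ended that call.

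Other soluble carriers, not all of them known from chemosensation, were compared in a list of their own. Of 12 soluble carriers outside the symbol rule, 9 were above the limit, 2 were higher in Cha and 3 in Gad, with a median difference of -0.02. The 3 higher in Gad were of the Npc2 family, whose founding member carries sterols out of the lysosome. Npc2a had means of 9.48 ± 0.61 in Cha and 11.08 ± 0.19 in Gad (difference -1.60, limma adjusted p = 0.00225), Npc2g differed by -1.79 (adjusted p = 0.00698) and Npc2h by -1.73 (adjusted p = 0.00167). The 2 higher in Cha were Npc2e and lush, named after their values were seen. Npc2e had values of 9.04, 7.87, 9.21, 10.22 and 7.34 in Cha, against 6.88, 7.93, 7.01, 7.29 and 7.20 in Gad, with overlapping groups. Its difference was 1.48 at the edge of the threshold (limma adjusted p = 0.04996), and the call held in only 6 of 20 alternatives, with adjusted p up to 0.11. It ended with any 1 array left out except Cha replicates 2 and 5. The gene lush, also called Obp76a, encodes the binding protein for the male pheromone cVA and belongs to the same protein family under another symbol. It had values of 5.25, 5.12, 5.09, 4.69 and 5.65 in Cha, against 4.71, 4.55, 4.31, 4.77 and 4.56 in Gad. These lie close to the limit for signal, on 4 Cha arrays and 1 Gad array above it. The difference was 0.58 (limma adjusted p = 0.0315), and the call held in 12 of 20 alternatives, with adjusted p up to 0.11. Leaving out 1 array ended it for replicates 1, 2 and 3 of Cha and for replicates 2, 3 and 5 of Gad (adjusted p of 0.0529 to 0.0835). It also ended with the replicate block (0.0825) and without the arrays coded K+.

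Co-receptors and partner genes of chemosensation were compared as well, among them some that serve other senses. Of 7 measured genes, 3 were above the limit, 1 was higher in Cha and 0 in Gad, with a median difference of 0.07. Ir93a, an ionotropic co-receptor for temperature and humidity sensing, had means of 7.60 ± 0.83 in Cha and 6.11 ± 0.28 in Gad (difference 1.49, limma adjusted p = 0.0135). The groups overlapped, and the call ended without the arrays coded K+ (1.27, adjusted p = 0.0719). With all probe sets of the gene averaged, the difference was 0.73. Its partner Ir25a, a broad co-receptor, differed by 0.48 (adjusted p = 0.0614), and Ir76b by 0.18 (adjusted p = 0.321). Orco, the co-receptor of the odorant receptors, had means of 4.40 ± 0.24 in Cha and 4.49 ± 0.30 in Gad, and exceeded the percentile on 1 of the 10 arrays. Of 12 genes of the CheA and CheB families, candidate ligand carriers of taste organs, 1 was above the limit and 0 passed by limma in either direction, with the smallest adjusted p at 0.173, for CheB42b, followed by CheA29a at 0.198.

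Probe sets that name several genes were read as a pair of genes each. The 2 probe sets of Obp57d and the cuticle gene Cpr57A had means of 7.95 and 5.15 in Cha and 8.12 and 5.27 in Gad. The 2 of Obp50b and Obp50c had means of 5.46 and 5.52 in Cha and 5.39 and 5.48 in Gad. These 4 were above the percentile on all 10 arrays and differed by -0.17 to 0.06, and which gene of each pair gave the signal cannot be told apart.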

How the data were processed

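Total RNA of sorted, reporter-positive cells was hybridised to Affymetrix arrays, 5 labelled Cha and 5 labelled Gad by their titles. The authors deposited log2 values, for which the submitters' processing notes name RMA without a version. RMA puts probe intensities of all arrays on a common distribution and shrinks the differences of dim genes. The number of arrays limits the precision. Of 18952 probe sets, 183 controls were left out and 13647 had 1 symbol, for 11983 genes. Symbols were checked against the Release 6 gene table, which changed 0.

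Cha minus Gad was fitted without covariates by lmFit and eBayes (limma 3.58.1, R 4.3.3), with 2-sided p-values adjusted over all genes by Benjamini-Hochberg at 0.05, after a check on simulated data. Exact permutation tests were 2-sided.

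Members, lists and tests were chosen with earlier results of these data known. Values were given for members past the threshold or above the limit for signal, and for up to 3 genes of every other list, those past the threshold and of smallest p first. Named beside these were markers at or near the limit for signal, and Orco. Npc2e, lush, the other blood cell markers past the threshold and the brightest markers of some lists were chosen after their values were seen. Alternatives covered normalization, removal of dim probe sets, the prior, array weights, a replicate block, arrays left out, and probe set choice. No sequences were used here, and the structural classes are background knowledge.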

Additional observations from a re-analysis of the deposited data

Results flagged for a closer look

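Over the 23 odorant-binding protein genes above the limit for signal, each group was searched for an array far from the other 4, which chance alone flags in about 1 of 20 groups. Of the 46 groups, 3 had such an array, all in Cha. Obp56b stood at 3.96 on Cha replicate 5, while the other Cha arrays lay between 5.90 and 6.37, and the Gad arrays between 5.35 and 6.16. Obp83g stood at 6.80 on Cha replicate 4, against 5.40 to 5.79 on the other Cha arrays and 5.79 to 6.08 on the Gad arrays. Obp19d stood at 5.19 on the same array, against 4.74 to 4.87 on the other Cha arrays.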

How the results depend on the processing

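Obp44a, Obp99a and Obp99c kept their direction and their call in all 20 alternatives, with differences of -1.06 to -0.80, -4.10 to -3.59 and -2.91 to -2.12. Probe set choice could not change these differences, since no other probe set named the 3 genes. The number of members higher in Gad, 3 on all arrays, was 3 to 4 with 1 array left out and 5 by the unadjusted exact permutation test. The number higher in Cha, 0 on all arrays, was 1 with median centring, with array weights and by the exact test, and 0 to 2 with 1 array left out. The number above the limit for signal, 23, was 32 at the 30th percentile, 17 at the 50th percentile, 17 where all 10 arrays had to pass, and 22 to 23 with 1 array left out. The calls over all genes numbered 984 toward Cha and 1228 toward Gad. They were 525 to 1252 and 852 to 1362 with 1 array left out, the first lowest without Gad replicate 3 (525), 5 (621) or 2 (627). Leaving out both arrays of letter code K+ (Cha replicate 2 and Gad replicate 5) gave 382 and 673. With the replicate number as a block they were 352 and 761, and the block left the same 3 members past the threshold. Deviations of arrays of the same number from their group means correlated at r = -0.40 to 0.04 over 11983 genes. Arrays of unlike number were not compared in this way, so whether the number marks a shared preparation cannot be told. Causes of these changes were not tested. RMA shrinks the differences of dim genes, so the 24 members below the limit give a weaker measure of change, although some dim genes of other lists passed.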
